A study of Mus musculus with 4 samples.

Results

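Voltage-gated calcium channels let calcium into a cell when its membrane is depolarised. A pore-forming α1 subunit decides the type of current, and auxiliary subunits (α2δ and β) set how much channel reaches the membrane and how it gates. In neurons the P/Q-type and N-type channels feed transmitter release, the L-type channels link activity to transcription, the R-type channel acts in dendrites and terminals, and the T-type channels open near rest and support bursts of spikes. The 10 genes described here were selected by their symbol: the 8 pore genes Cacna1a (P/Q-type), Cacna1b (N-type), Cacna1e (R-type), Cacna1c and Cacna1d (L-type), Cacna1g, Cacna1h and Cacna1i (T-type), and the α2δ genes Cacna2d1 and Cacna2d3. Each matched 1 of the 21933 genes in the count matrices.

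The genes were followed in nuclei from the right cerebral cortex, sequenced one by one (snRNA-seq), of adult male mice on the C57Bl/6J background, with 2 control (CrT+/y) and 2 CrT-KO (CrT-/y) animals and 1 library per animal. CrT-KO mice carry a deletion in Slc6a8, the X-linked gene of the creatine transporter, in every cell of the body, the controls were littermates, and no group was treated. The question put to these genes was whether their transcript levels differed between cell populations, and whether loss of the transporter changed them in any population. The level of a gene is given as UMIs (unique molecular identifiers) per 1000000 UMIs of a population in 1 library (CPM), as the mean ± SD of the 4 libraries unless the genotypes are named, and n is then 4. The whole gene body was counted, so levels of different genes are set side by side only per kb of gene body, and even then priming within introns can favour one gene over another.

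The libraries held 8282 to 9295 nuclei with medians of 5548 to 6700.5 UMIs. After 1236 doublets were removed, 34230 of 34458 nuclei were named from marker genes: 17093 excitatory neurons, 8440 inhibitory neurons, 5121 oligodendrocytes, 2231 microglia, 660 oligodendrocyte precursors (OPCs), 493 astrocytes and 192 endothelial cells and pericytes. The excitatory neurons were divided into 8 subclasses by layer and projection (IT, intratelencephalic; ET, extratelencephalic; NP, near-projecting; CT, corticothalamic), and the inhibitory neurons into LAMP5-like, VIP-like, SST-like and PV-like interneurons and 2717 MSN-like nuclei. Medium spiny neurons (MSN) belong to the striatum and not to the cortex that the labels name. A further 2180 excitatory and 2599 inhibitory nuclei had no subclass, and 96 barcodes occurred in more than 1 library. Slc6a8 fell in CrT-KO, from 6.93 and 6.14 CPM in the control libraries to 1.64 and 1.63 CPM over all nuclei, and the log2 fold change in excitatory neurons was -1.95 ± 0.18 (SE; edgeR quasi-likelihood test, adjusted p = 0.000543).

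**Figure D1:**
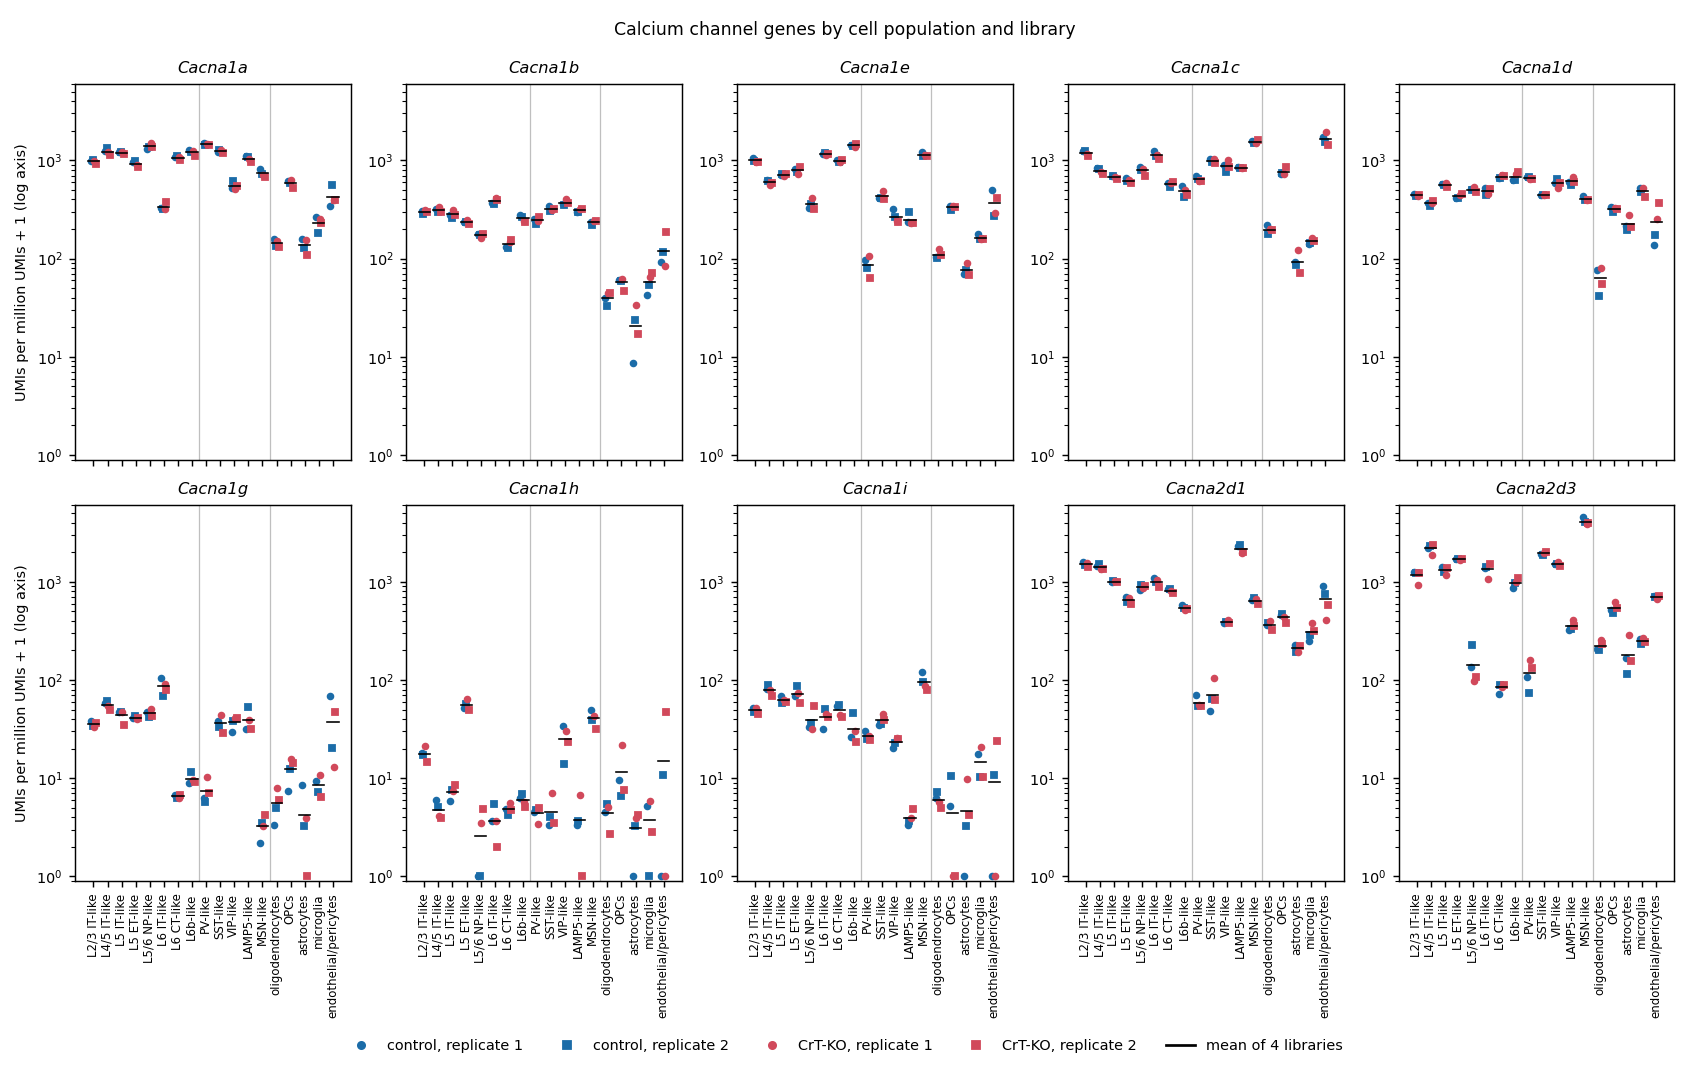
UMIs per 1000000 UMIs (log axis, 1 added) of the 10 calcium channel genes in 13 neuron subclasses and 5 glial and vascular populations, with 1 point per library and a bar at the mean of the 4 libraries. Cacna1d varied least between neuron subclasses (1.87-fold between the highest and the lowest mean) and Cacna2d3 most (49.2-fold).

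Cacna1a (chr8:84388440-84640246, + strand; all positions GRCm38, whole gene body), the P/Q-type pore gene that serves fast transmitter release, had the highest level per kb among the 8 pore genes in 11 of 13 neuron subclasses, the exceptions being L6 IT-like and VIP-like nuclei, where Cacna1b led. It made up 55.7 ± 0.61% of their summed level per kb in PV-like nuclei and 51.1 ± 1.15% in L5/6 NP-like nuclei, but 12.5 ± 1.11% in L6 IT-like nuclei. In CPM, its level was highest in PV-like nuclei, at 1484, 1447, 1467 and 1435 in control replicates 1 and 2 and CrT-KO replicates 1 and 2. The next subclass, L5/6 NP-like at 1385 ± 80.7 CPM, overlapped that range. L6 IT-like nuclei stood at the other end, with 326, 319, 319 and 379 CPM, below every library of the other 7 excitatory subclasses. These 464 nuclei pool clusters of 244 nuclei (led by Col11a1 and Gfra1) and 220 nuclei (led by Npsr1 and Spag16), which were set apart after the levels were seen. Cacna1a stood at 68.0, 74.9, 42.9 and 89.4 CPM in the cluster led by Col11a1 and at 688, 558, 598 and 654 CPM in that led by Npsr1, so the pooled level and the pooled share per kb describe neither. The shares and the order of the pore genes per kb were not computed for the single clusters. A further cluster of 1134 nuclei, which scored best as L6 IT-like but had too few of the markers to be named, held 974 ± 31.7 CPM. For the pooled L6 IT-like nuclei against the mean of those 7 subclasses the log2 difference was -1.79 ± 0.05 (SE; edgeR quasi-likelihood test with the library as a block, adjusted p under the threshold of 0.1 and a fold of at least 2, the rule for a call here).

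Cacna1b (chr2:24603887-24763152, - strand), the N-type pore gene, ran from 140 ± 13.6 CPM in L6 CT-like nuclei to 382 ± 27.0 CPM in L6 IT-like nuclei, a 2.74-fold span. The L6 IT-like cluster led by Col11a1 had 436 ± 42.6 CPM and that led by Npsr1 326 ± 21.5 CPM. It passed the 2-fold rule in none of the 12 comparisons between populations. Cacna1e (chr1:154390731-154884501, - strand), the R-type pore gene, spanned 16.6-fold. It was highest in L6b-like nuclei, at 1429, 1408, 1376 and 1474 CPM, which did not overlap the next population. In PV-like nuclei it had 95.5, 79.1, 105 and 62.0 CPM, the lowest of the 13 neuron subclasses and overlapping the libraries of oligodendrocytes and astrocytes. L5/6 NP-like nuclei had 355 ± 42.7 CPM, against 599 ± 29.1 CPM in L4/5 IT-like nuclei, the next excitatory subclass above them.

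Among the L-type genes, Cacna1d varied 1.87-fold between neuron subclasses, the least of the 10 genes, and Cacna1c 3.22-fold. Cacna1c (chr6:118587240-119196418, - strand) ran from 481 ± 56.2 CPM in L6b-like to 1549 ± 63.6 CPM in MSN-like nuclei, and Cacna1d (chr14:30039939-30491455, - strand) from 365 ± 18 CPM in L4/5 IT-like to 683 ± 67.7 CPM in L6b-like nuclei. Of the 17 neighbouring pairs in the order of populations, 12 overlapped over the libraries for Cacna1c and 13 for Cacna1d. Cacna1c shares its span with Dcp1b, and Cacna1d with Chdh and Dcp1a, all on the other strand. Use of the strand in the counting was not given in the sources used here, so UMIs of these pairs may not be separated.

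The T-type genes varied 37.1-fold (Cacna1g), 34.8-fold (Cacna1h) and 31.9-fold (Cacna1i) between neuron subclasses. Cacna1g (chr11:94408391-94474198, - strand) was highest in L6 IT-like nuclei (105, 67.2, 90.7 and 79.0 CPM, with 89.3 ± 23.5 and 79.9 ± 18.1 CPM in the clusters led by Col11a1 and Npsr1) and low in L6 CT-like (5.54 ± 0.27 CPM), PV-like (6.35 ± 2.08 CPM) and MSN-like nuclei (2.30 ± 0.83 CPM). Cacna1h (chr17:25374285-25433783, - strand, overlapped by Tpsg1 on the other strand) was highest in L5 ET-like nuclei, with 51.4, 55.7, 63.0 and 48.8 CPM, and no other population reached that range. It had 39.9 ± 7.29 CPM in MSN-like and 24.3 ± 8.65 CPM in VIP-like nuclei, and under 7 CPM in 9 of the other neuron subclasses. Cacna1i (chr15:80287238-80398279, + strand) was highest in MSN-like nuclei at 94.0 ± 18.4 CPM, which overlapped L4/5 IT-like nuclei at 78.5 ± 7.62 CPM. It was lowest in LAMP5-like nuclei, at 2.94 ± 0.62 CPM. For Cacna1h and Cacna1i, 16 of the 17 neighbouring pairs overlapped. The pair that did not was L5 ET-like above MSN-like nuclei for Cacna1h and L5 IT-like above L2/3 IT-like nuclei for Cacna1i.

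**Figure D2:**
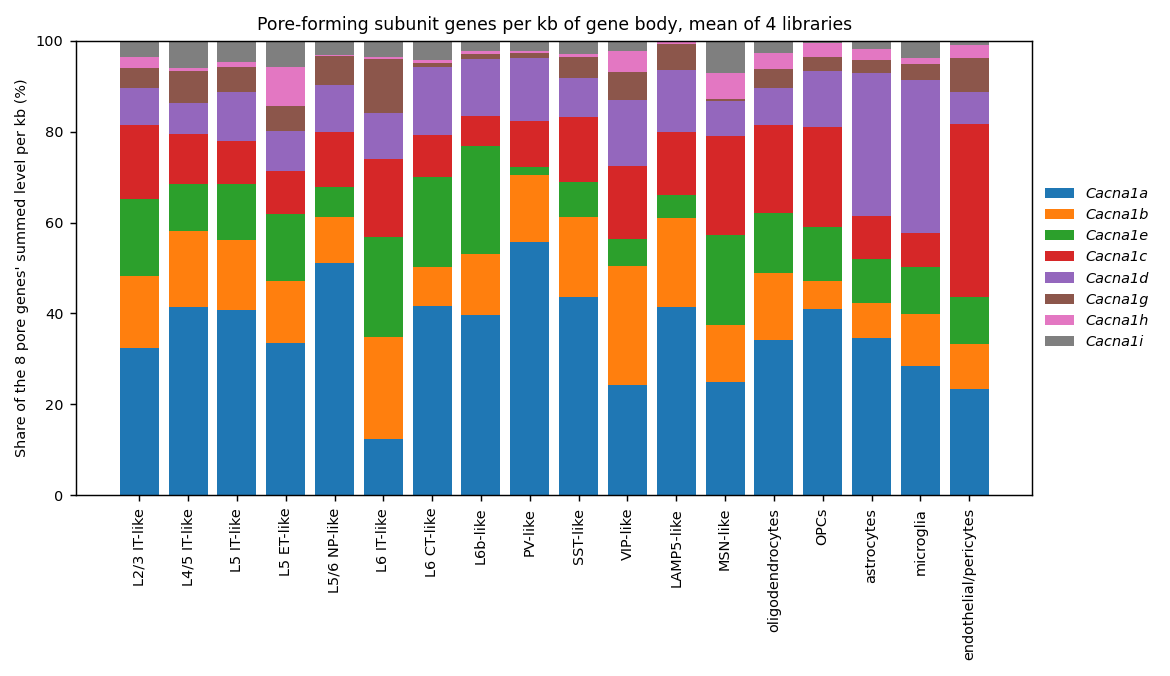
Share of each pore gene in the summed level per kb of gene body of the 8 pore genes, in percent, as stacked bars for 18 populations (mean of 4 libraries). Cacna1a took 55.7% in PV-like and 12.5% in L6 IT-like nuclei (unlike clusters pooled), and Cacna1d took 33.6% in microglia.

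The α2δ genes, whose products bind the pore subunit from outside the cell, varied 49.2-fold (Cacna2d3) and 37.6-fold (Cacna2d1) between neuron subclasses, the latter close to the 37.1-fold of Cacna1g. Cacna2d3 (chr14:28904943-29721864, - strand) had 4515, 4027, 3840 and 3932 CPM in MSN-like nuclei, above all other populations. It stood at 2193 ± 210 CPM in L4/5 IT-like and 1947 ± 62.9 CPM in SST-like nuclei. In L6 CT-like nuclei it had 71.0, 88.4, 83.1 and 89.0 CPM, and the levels in PV-like (117 ± 36.8 CPM) and L5/6 NP-like nuclei (142 ± 59.7 CPM) were also low. The range of the PV-like libraries (72.5 to 159 CPM) overlapped that of L6 CT-like nuclei. All L5/6 NP-like libraries (96.9 to 228 CPM) lay above the L6 CT-like ones. Cacna2d1 (chr5:15934691-16374511, + strand) was highest in LAMP5-like nuclei, with 2336, 2355, 1950 and 2028 CPM, followed by L2/3 IT-like nuclei at 1503 ± 77.6 CPM. It was lowest in PV-like (57.6 ± 7.57 CPM) and SST-like nuclei (69.1 ± 24.3 CPM), which overlapped each other. SST-like nuclei thus held much Cacna2d3 and little Cacna2d1, and PV-like nuclei little of both. LAMP5-like nuclei had 352 ± 40.7 CPM of Cacna2d3, a level that was 600 CPM with doublets kept and 590 CPM with calcium channel genes used in the clustering. The related gene Cacna2d2, which is not among the 10, had 249 ± 16.0 CPM in PV-like nuclei.

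Over the 18 populations, the gene with the pattern most like that of Cacna2d3 was Lrtm1 (Pearson r = 0.976 of log2(CPM + 1)), which overlaps Cacna2d3 on the other strand. Efcab1 (r = 0.847) and Iqschfp (r = 0.76) followed. For Cacna2d1 these were Mlip (r = 0.873), Arpp21 (r = 0.785) and Mmp17 (r = 0.782), and for Cacna1g Nwd2 (r = 0.883), Herc3 (r = 0.858) and Cyp4x1 (r = 0.845). The populations of 1 library share their depth and their animal, and these values are descriptions.

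**Figure D3:**
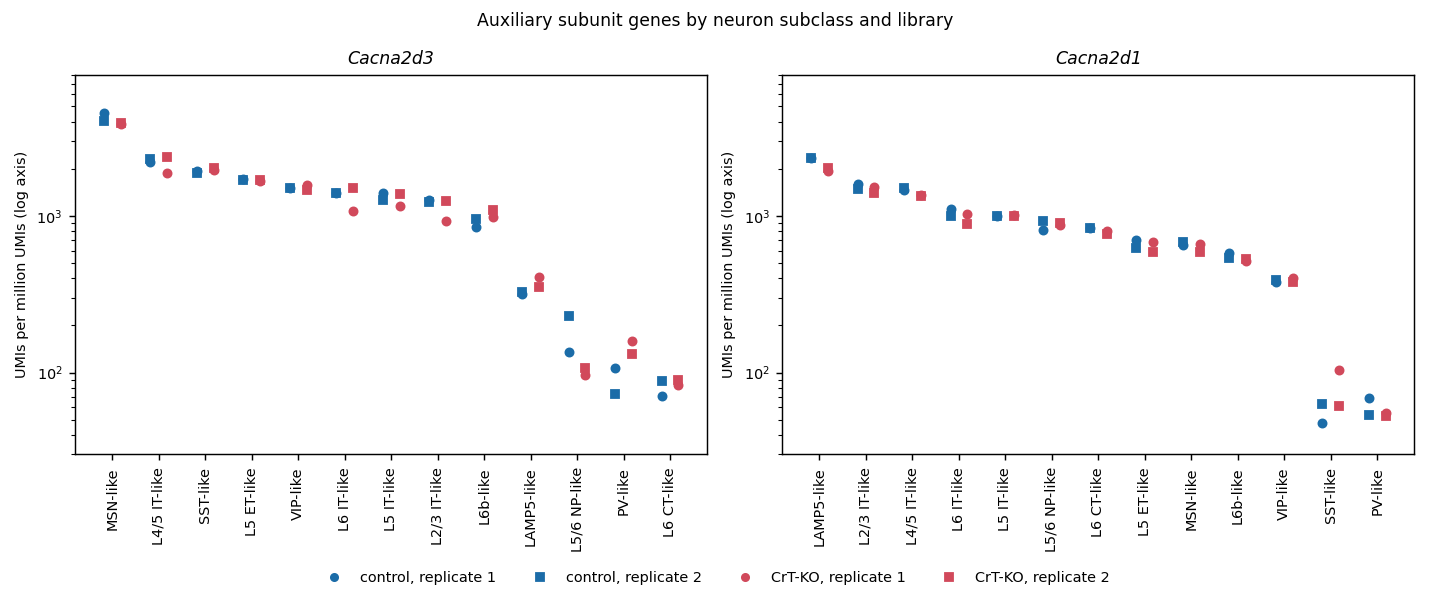
UMIs per 1000000 UMIs (log axis) of Cacna2d3 and Cacna2d1 in the 13 neuron subclasses, ordered by their mean, with 1 point per library. Cacna2d3 falls from about 4079 in MSN-like to 82.9 in L6 CT-like nuclei, and Cacna2d1 from 2167 in LAMP5-like to 57.6 in PV-like nuclei.

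The differences between populations were tested with the library as a block. Calcium channel genes had been kept out of the genes that built the clusters. PV-like nuclei against the mean of the other 3 interneuron subclasses gave 4 calls of 10 members, all lower in PV-like nuclei, beside 11.6% of all genes called. The log2 differences were -3.18 ± 0.09 for Cacna2d3, -2.80 ± 0.11 for Cacna2d1, -2.56 ± 0.18 for Cacna1g and -1.88 ± 0.09 for Cacna1e. Of the 11 other channel subunit genes tested, Cacna2d2 was higher (3.08 ± 0.09), and Cacnb2 (a β subunit, -1.54 ± 0.06), Cacng4 and Cacng5 were lower. The Cacng genes are in that list by their symbol, and a part in calcium channels was not tested. The doublet filter bears on these values. With doublets kept in their clusters, the PV-like mean of Cacna2d3 was 296 CPM, that of Cacna2d1 165 CPM and that of Cacna1e 160 CPM, and the Cacna1e difference of -0.90 no longer reached 2-fold.

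MSN-like nuclei against the mean of the 4 interneuron subclasses gave 7 calls of 10 members, beside 20.3% of all genes. Cacna1h (log2 difference 2.96 ± 0.15), Cacna2d3 (2.89 ± 0.06), Cacna1i (2.64 ± 0.10), Cacna1e (2.47 ± 0.06), Cacna2d1 (1.52 ± 0.07) and Cacna1c (1.01 ± 0.05) were higher, and Cacna1g was lower (-3.25 ± 0.21). The T-type genes thus went in both directions. The Cacna1c difference sits at the 2-fold limit and was 0.97 without CrT-KO replicate 2 and 0.99 with doublets kept, both short of a call. Excitatory against inhibitory neurons gave 1 call of 10, Cacna2d1 at 1.32 ± 0.05, beside 14.9% of all genes, and the other members lay between -0.53 and 0.85. Cacna2d2, by contrast, was higher in inhibitory neurons (-4.20 ± 0.06). The 8440 inhibitory nuclei included 2717 MSN-like nuclei and 2599 without a subclass, so this comparison does not describe cortical interneurons alone. Cacna1e, for example, had 1145 CPM in MSN-like nuclei but 85.5 (PV-like) to 428 CPM (SST-like) in the 4 interneuron subclasses. Excitatory neurons were not tested against those subclasses alone.

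Among the excitatory subclasses, each set against the mean of the other 7, the calls fell on few genes. L6 CT-like nuclei had lower Cacna2d3 (-3.62 ± 0.09) and Cacna1g (-2.79 ± 0.12), 2 calls of 10 members beside 8.18% of all genes. L5/6 NP-like nuclei had 3 calls beside 12.7%, lower Cacna2d3 (-2.86 ± 0.11), Cacna1h (-2.26 ± 0.49) and Cacna1e (-1.5 ± 0.06). L6 IT-like nuclei had 3 calls beside 8.05%, lower Cacna1a (above) and Cacna1h (-1.34 ± 0.38) and higher Cacna1g (1.71 ± 0.10). These calls were made on the pooled nuclei. Cacna1h had 0 CPM in every library of the L6 IT-like cluster led by Col11a1, but 5.63 ± 2.82 CPM in that led by Npsr1. The pooled Cacna1h difference thus describes neither cluster. Cacna1h had 0 UMIs in both control libraries of L5/6 NP-like nuclei, so its fitted difference depends on the prior count.

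L5 ET-like nuclei, the thick-tufted projection neurons of layer 5, had 2 calls beside 8.08%, higher Cacna1h (3.65 ± 0.12) and Cacna2d3 (1.41 ± 0.06). L4/5 IT-like nuclei had 2 beside 7.99%, higher Cacna2d3 (1.84 ± 0.06) and Cacna1g (1.05 ± 0.06). L2/3 IT-like nuclei had 1 beside 7.46%, higher Cacna1h (1.67 ± 0.11), and L6b-like nuclei 1 beside 10.2%, lower Cacna1g (-1.92 ± 0.20). L5 IT-like nuclei had 0 calls beside 5.16% (9 of 10 members had an adjusted p under 0.1, none with a 2-fold difference). Cacna1b and Cacna1d gave no call in any comparison among neurons, and Cacna1i only that of MSN-like nuclei.

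Outside the neurons most members were low, and levels there need to be read against neuronal RNA that is free in the suspension. The 8 neuron-only genes (such as Snap25, a synaptic vesicle fusion gene, and Gad2) gave that yardstick as a percentage of their neuronal level. In oligodendrocytes they had 3.78 to 25.5% and the members 8.98 to 30.7% of the excitatory level, with 2 of 10 members above the highest neuron-only gene, Cacna2d1 (30.7%) and Cacna1h (28.5%, at 3.45 ± 1.23 CPM). The part of free RNA in these levels was not tested. The plot of glial levels shows the members that stood above the yardstick in each population.

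Cacna1d in microglia had 518, 471, 517 and 427 CPM, 102 ± 9.25% of its level in excitatory neurons, whereas the neuron-only genes reached at most 36.7% and no other member passed 26.1%. Per kb, Cacna1d took 33.6% of the summed pore level in microglia and 31.5% in astrocytes, where it had 224 ± 37.9 CPM (47.1% of the excitatory level, neuron-only genes at most 19.4%). With doublets kept, neither level moved by more than 1.5-fold, while the 9 other members in astrocytes moved by 1.73-fold to 3.35-fold. Cacna1c in endothelial cells and pericytes had 1737, 1541, 1943 and 1445 CPM, 198% of its excitatory level, beside at most 88.9% for a neuron-only gene in these 192 nuclei. Cacna1g (36.2 ± 25.5 CPM) and Cacna1h (13.9 ± 21.8 CPM, with 0 UMIs in 2 libraries) also exceeded that percentage there, with a spread near or above their mean.

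In OPCs, the dividing precursors of oligodendrocytes, 7 of 10 members stood above the highest neuron-only gene (34.1%). Cacna1c had 764 ± 59.1 CPM (91.2% of the excitatory level), Cacna1d 320 ± 17.7 CPM (67.2%) and Cacna1a 589 ± 49.9 CPM (56.6%). Cacna1h, at 10.5 ± 7.14 CPM, rested on few UMIs. Against oligodendrocytes, 6 of the 8 members tested were called, all higher in OPCs, beside 31.5% of all genes. The log2 differences were 2.45 ± 0.12 for Cacna1d, 2.11 ± 0.09 for Cacna1a, 2.03 ± 0.09 for Cacna1c, 1.69 ± 0.11 for Cacna1e, 1.37 ± 0.47 for Cacna1g and 1.35 ± 0.09 for Cacna2d3. Cacng4, outside the 10 and listed with the other subunit genes by its symbol alone, had the greatest difference of the 9 tested from that list (7.0 ± 0.14).

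**Figure D4:**
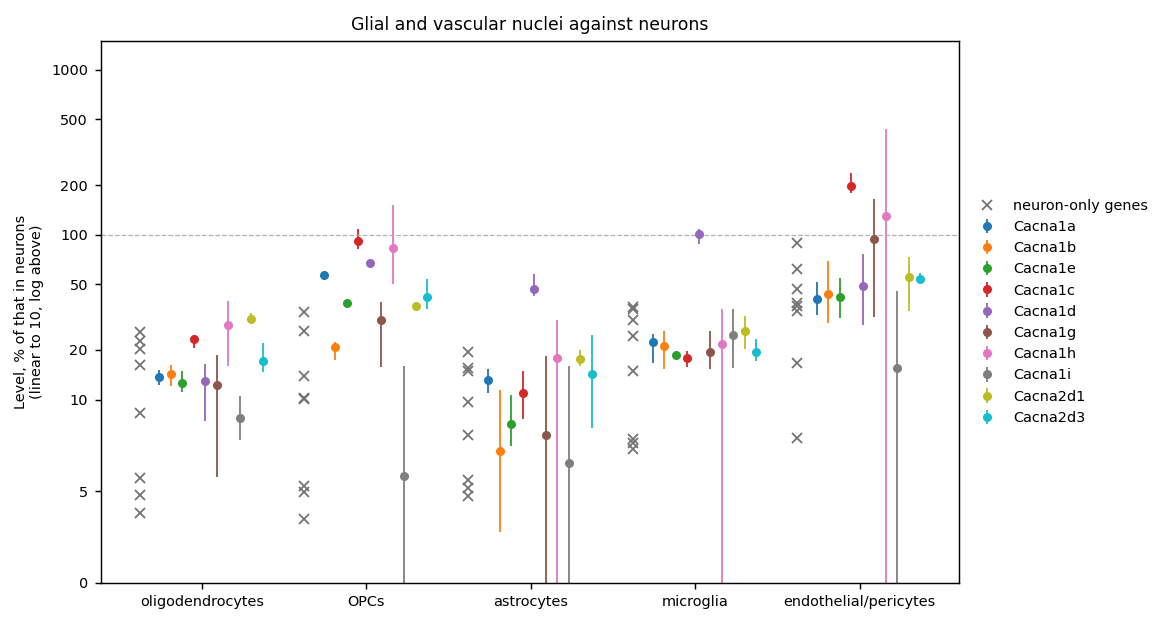
Level in glial and vascular populations as a percentage of the level in excitatory neurons (inhibitory neurons for Gad1 and Gad2), linear to 10% and logarithmic above, with the mean and the range of the 4 libraries for the 10 members and crosses for 8 neuron-only genes. Cacna1d in microglia (102%) and Cacna1c in endothelial cells and pericytes (198%) lie above all crosses of their population.

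The comparison of CrT-KO with control animals gave 1 call among these genes. Each population was tested on its own with 2 libraries against 2, and 174 member tests in 20 populations passed the filter on low counts. The call was Cacna2d3 in PV-like nuclei. An unadjusted p under 0.05 was reached by 12 (6.9%) of them, beside 6.62% of the 170922 tests of all genes, and by 5 under DESeq2, which called none. The p-values rest on 2 animals per genotype and on a spread estimated across genes. The tests ran on UMIs summed over nuclei, so they do not separate fewer nuclei carrying a gene from less RNA per nucleus.

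In excitatory neurons 0 of 10 members were called, beside 0.186% of all genes (26 of 13970), with 0 at an unadjusted p under 0.05 and 0 called by DESeq2. The median log2 fold change of the members was -0.03, against -0.01 over all genes tested. Their log2 fold changes ran from -0.09 ± 0.08 (SE) for Cacna1i to 0.11 ± 0.13 for Cacna1h. For Cacna1a it was -0.02 ± 0.07, an interval (2 SE each way) of -0.15 to 0.12, with 1041 and 1082 CPM in the control and 1049 and 983 CPM in the CrT-KO libraries. In inhibitory neurons 0 of 10 were called, beside 0.0621%, with values from -0.14 ± 0.10 for Cacna1i to 0.15 ± 0.13 for Cacna1g. Over both classes the widest interval was that of Cacna1h in inhibitory neurons, -0.42 to 0.23, so changes inside such bounds were not detectable with 4 libraries.

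The other populations also gave 0 calls, except PV-like nuclei with 1 of the 9 members tested (0.163% of all genes). The share of all genes called was 0.0328% in oligodendrocytes, 0.0344% in OPCs, 0.0202% in astrocytes, 0.0412% in microglia and 0.0627% in endothelial cells and pericytes. Among excitatory subclasses it was 0.299% in L2/3 IT-like, 0.796% in L4/5 IT-like, 0.773% in L5 IT-like, 0.14% in L5 ET-like, 0.015% in L5/6 NP-like, 0.106% in L6 IT-like, 0.13% in L6 CT-like and 0.0% in L6b-like nuclei. Among the inhibitory subclasses it was 0.0346% in SST-like, 0.03% in VIP-like, 0.0162% in LAMP5-like and 0.187% in MSN-like nuclei.

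**Figure D5:**
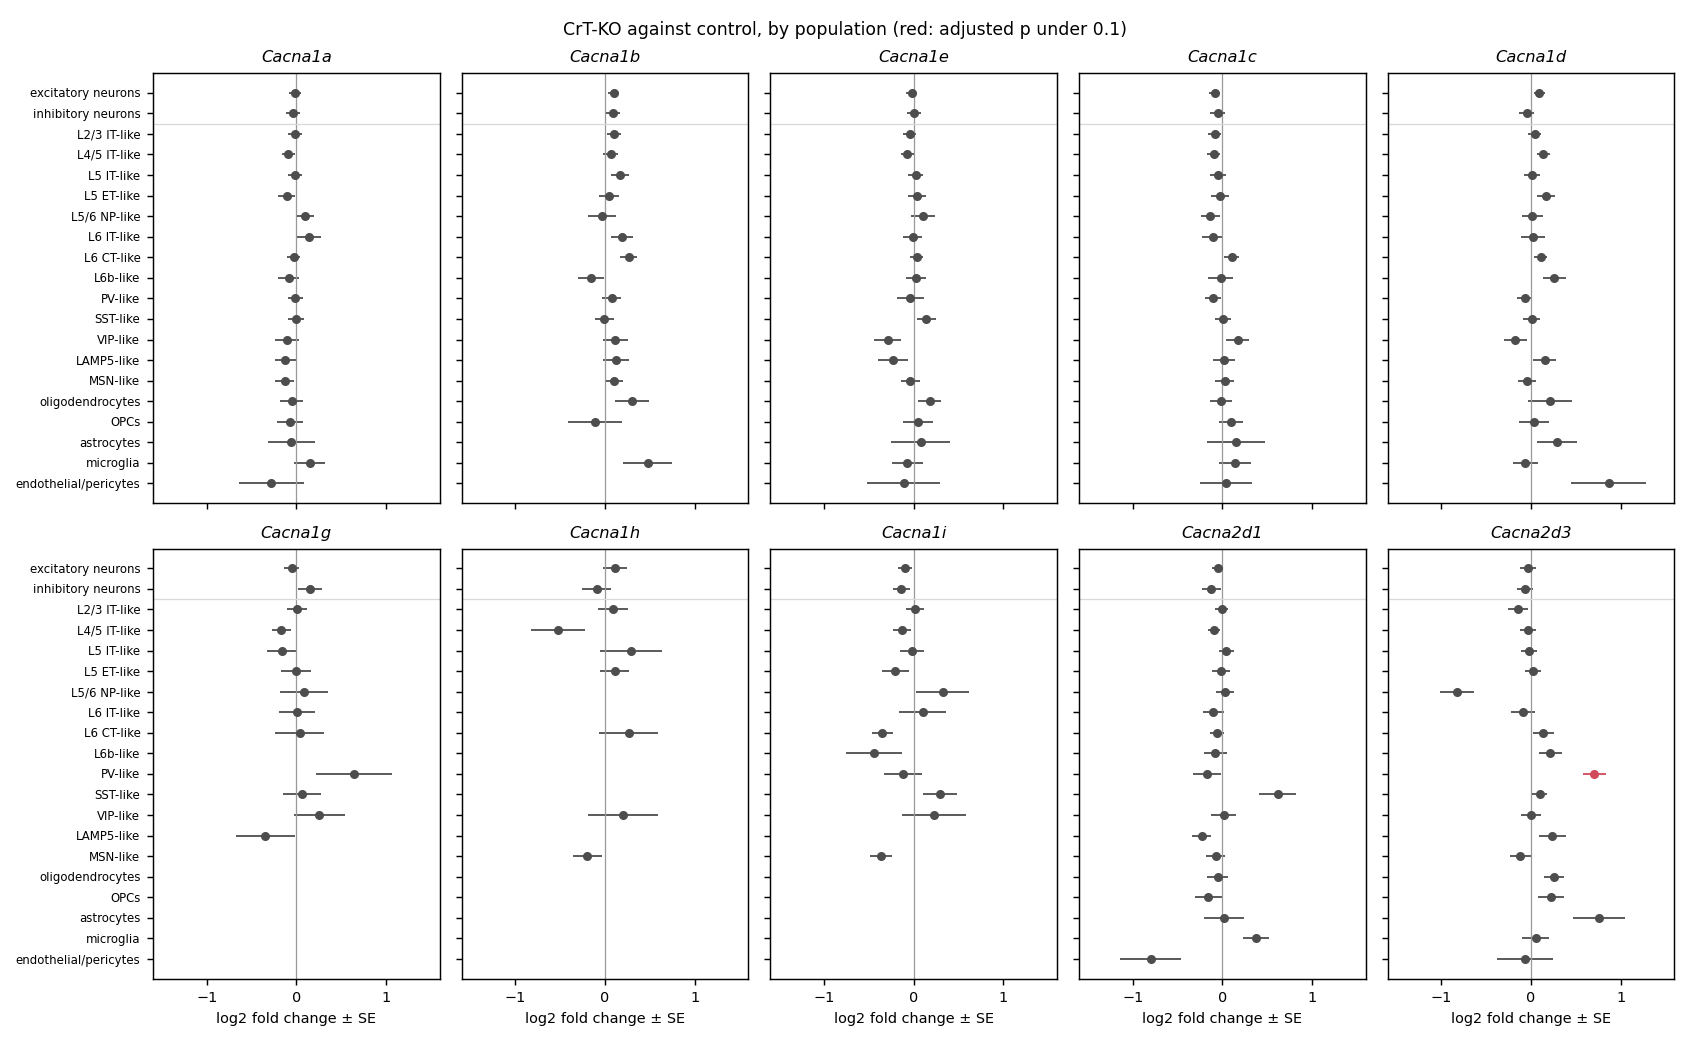
Log2 fold change (CrT-KO against control) with its SE for each of the 10 genes in 20 populations, from 1 fit per population (2 against 2 libraries), where a missing point marks a gene under the count filter. The 1 called value (red) is Cacna2d3 in PV-like nuclei at 0.71, and in excitatory and inhibitory neurons all points lie between -0.14 and 0.15.

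Cacna2d3 in PV-like nuclei, fast-spiking interneurons that carry little of this gene, had 106 and 72.5 CPM in the control and 159 and 131 CPM in the CrT-KO libraries. Both CrT-KO libraries lay above both control libraries, which was the case in one direction or the other for 33.9% of the genes tested in this population after TMM scaling. The log2 fold change was 0.71 ± 0.13 (SE; edgeR quasi-likelihood test, adjusted p = 0.00553). The values rest on 239 and 155 against 391 and 261 UMIs in 285 to 314 nuclei per library. UMIs of Cacna2d3 were found in 36.0 and 28.1% of the control and 43.3 and 38.3% of the CrT-KO nuclei. Nuclei with at least 10 of these UMIs numbered 4 and 2 in the control and 7 and 4 in the CrT-KO libraries, and without them the levels were 84.5 and 55.6 against 103 and 90.2 CPM. The call was lost with doublets kept (0.14, adjusted p = 0.908) and under DESeq2 (0.71, adjusted p = 1.00), and without control replicate 2 (0.49, adjusted p = 0.312), CrT-KO replicate 1 (0.58, adjusted p = 0.944) or CrT-KO replicate 2 (0.81, adjusted p = 0.558).

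Markers of other types were measured in the same PV-like nuclei. Of 21 marker lists, 3 were higher in CrT-KO with no overlap of the genotypes and 7 lower. The 9 SST-like markers summed to 143 and 139 CPM in the control and 126 and 125 CPM in the CrT-KO libraries, with 2 or 3 of them at 0, and the 15 MSN-like markers to 1891 and 2047 against 1941 and 1915 CPM, with 1 to 3 at 0. The MSN-like list shares Tac1 with the PV-like list, so its sum is not made of other types' markers alone. The 10 VIP-like markers, 4 to 6 of them at 0, summed to 95.9 and 88.4 against 105 and 124 CPM, and the 8 L2/3 IT-like markers, none at 0, to 885 and 948 against 978 and 992 CPM. Both lists were higher in CrT-KO, Cacna2d3 had 1165 CPM in L2/3 IT-like nuclei, and their part in the result was not tested. Cacna2d3 in SST-like nuclei themselves was 1928 and 1873 against 1963 and 2023 CPM (0.10, adjusted p = 0.941). The difference between the effects in PV-like and SST-like nuclei was 0.61 ± 0.15 for Cacna2d3 (edgeR quasi-likelihood test, unadjusted p = 0.000611, adjusted p = 0.363). Of 9 members 0 were called there (2 at an unadjusted p under 0.05) beside 0.0316% of all genes, so an effect particular to PV-like nuclei was not shown.

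Cacna2d3 in L5/6 NP-like nuclei, also a population with little of it, went the other way. It had 136 and 228 CPM in the control and 96.9 and 107 CPM in the CrT-KO libraries, a log2 fold change of -0.83 ± 0.19 that missed the threshold (adjusted p = 0.115). In control replicate 2, 134 of its 165 UMIs came from 5 nuclei with at least 10 each, and without such nuclei the levels overlapped, at 63.6 and 47.4 against 68.0 and 51.6 CPM. The fold change without that library was -0.39 (adjusted p = 0.916), and without control replicate 1 it was -1.16 (adjusted p = 0.000138). The genotypes did not overlap, as for 33.5% of all genes tested in this population after TMM scaling. UMIs of Cacna2d3 were found in 28.6 and 28.6% of the control and 26.4 and 20.9% of the CrT-KO nuclei. The 15 MSN-like markers, 3 to 5 of them at 0, summed to 1613 and 1697 CPM in the control and 1457 and 1507 CPM in the CrT-KO libraries of these nuclei. The 8 L6 CT-like markers, at most 3 of them at 0, summed to 3897 and 3392 against 3996 and 4223 CPM, and the 7 L5/6 NP-like markers, none at 0, to 8771 and 8860 against 9250 and 9596 CPM. Of the 21 marker lists, 4 were higher and 3 lower in CrT-KO L5/6 NP-like nuclei with no overlap of the genotypes. The part of the marker lists in the result was not tested. Set against the effect in PV-like nuclei, a comparison chosen after both were seen, 1 of 9 members was called (Cacna2d3) beside 0.0444% of all genes.

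In the 4 IT subclasses, CrT-KO replicate 1 had the lowest Cacna2d3 of the 4 libraries, and CrT-KO replicate 2 did not follow it. In L2/3 IT-like nuclei the values were 1263 and 1226 CPM in the control and 930 and 1239 CPM in the CrT-KO libraries. The log2 fold change was -0.14 ± 0.11 (adjusted p = 0.774). Without CrT-KO replicate 2 it was -0.38 (adjusted p = 0.0234), and without CrT-KO replicate 1 it turned to 0.06. L6 IT-like nuclei showed the same split, with 1391 and 1406 against 1077 and 1505 CPM.

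Of the other members with an unadjusted p under 0.05, none passed the adjustment. Cacna2d1 in SST-like nuclei had 47.5 and 63.3 against 104 and 61.4 CPM (0.62 ± 0.21, adjusted p = 0.861), raised in CrT-KO replicate 1 alone, and the value was 0.20 without that library. The effect in SST-like against LAMP5-like nuclei, also compared after the values were seen, gave 0 calls of 9 members (1 at an unadjusted p under 0.05, Cacna2d1) beside 0.0117% of all genes. Cacna1i in MSN-like nuclei had 120 and 93.4 against 85.1 and 77.7 CPM (-0.37 ± 0.12, adjusted p = 0.476), with no overlap, as for 35.0% of all genes tested there after TMM scaling. UMIs of Cacna1i were found in 38.7 and 35.5% of the control and 33.3 and 31.1% of the CrT-KO nuclei. In those nuclei the 15 MSN-like markers summed to 10985 and 9909 against 9676 and 9798 CPM and the 8 markers of inhibitory neurons to 1357 and 1408 against 1588 and 1659 CPM, none of either list at 0, and their part in the result was not tested. Of the 21 marker lists, 4 were higher and 9 lower in CrT-KO MSN-like nuclei with no overlap of the genotypes. In L6 CT-like nuclei Cacna1i had 53.7 and 55.2 against 42.9 and 40.7 CPM (-0.35 ± 0.12, adjusted p = 0.492) and Cacna1b 130 and 126 against 146 and 155 CPM (0.26 ± 0.09, adjusted p = 0.539). The remaining 6 were Cacna2d3 in oligodendrocytes (0.25) and astrocytes (0.76), Cacna2d1 in microglia (0.37), endothelial cells and pericytes (-0.80) and LAMP5-like nuclei (-0.23), and Cacna1d in L6b-like nuclei (0.26), with adjusted p-values from 0.729 to 0.999.

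The genotype effect itself was compared between excitatory and inhibitory neurons, where 0 of 10 members were called (1 at an unadjusted p under 0.05, Cacna1d) beside 0.155% of all genes. Between excitatory neurons and oligodendrocytes 0 of 10 were called (1 at an unadjusted p under 0.05, Cacna2d3) beside 0.432%. DESeq2 was not run on these differences.

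Partner genes of the channels gave 3 calls over the same 20 populations. They fell in L5 IT-like and MSN-like nuclei, where 0.773% and 0.187% of all genes tested were called. Of 16 other channel subunit genes, Cacnb4 rose in L5 IT-like nuclei (1392 and 1232 against 1552 and 1638 CPM, log2 fold change 0.32 ± 0.08, adjusted p = 0.0895), 1 call in 190 tests. An unadjusted p under 0.05 was reached in 16 of these tests (8.42%, beside 6.62% over all genes), and DESeq2 gave 2 calls, both Cacnb4 (0.33 in L5 IT-like nuclei, adjusted p = 0.061, and 0.27 in L2/3 IT-like nuclei, adjusted p = 0.0963). Among 8 calcium-activated potassium channel genes, Kcnn3 rose in the same nuclei (0.70 ± 0.14, adjusted p = 0.0119), 1 call in 130 tests (18 at an unadjusted p under 0.05, 13.8%, and 0 called by DESeq2). Among 15 genes of calcium stores and entry, the ryanodine receptor gene Ryr1 fell in MSN-like nuclei (-0.57 ± 0.13, adjusted p = 0.0778), 1 call in 185 tests (19 at an unadjusted p under 0.05, 10.3%, and 0 called by DESeq2). The 20 presynaptic partner genes gave 0 calls in 361 tests (15 at an unadjusted p under 0.05, 0 by DESeq2), the 20 calmodulin signalling genes 0 in 331 (25, and 0 by DESeq2) and the neuron-only genes 0 in 136 (9, and 0 by DESeq2). In excitatory neurons the list medians were 0.03 for other subunits, 0.05 for presynaptic partners, 0.04 for calcium-activated potassium channels, -0.01 for stores and entry, 0.04 for calmodulin signalling and 0.08 for neuron-only genes.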

How the data were processed

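The authors sorted nuclei, made droplet libraries (10x Genomics), checked reads with FastQC and counted UMIs with Cell Ranger 3.1.0 on GRCm38 (mm10), with the whole gene body taken as exon, per the study's methods and the submitters' processing notes. The deposited matrices hold raw counts of UMIs per gene and nucleus, without cell types. Doublets were removed with Scrublet (scanpy 1.11.5). Leiden clusters (igraph 0.11.9; 3000 variable genes without calcium channel genes, 30 components, 20 neighbours) were named "-like" from marker lists, with thresholds set after the matrices were seen, so names may differ from the study's. UMIs were summed per library and population. edgeR 4.0.16 (R 4.3.3; TMM, filterByExpr with a minimum count of 10 and total of 15, quasi-likelihood test, Benjamini-Hochberg over all genes tested, threshold 0.1) replaced the study's test over nuclei. A call between populations also needed 2-fold. DESeq2 1.42.0 was an alternative. The script was checked on simulated counts. Genes were placed with GENCODE vM21. Named genes were the 10 members, list genes called between genotypes, Slc6a8 and, for the most uneven members, the 3 genes most alike by Pearson r. Members and lists were chosen with earlier results of these data known. Each library is 1 animal, per the study's methods, and an independent replicate, per the labels.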

Additional observations from a re-analysis of the deposited data

Results flagged for a closer look

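The genotype effect on Cacna2d3 differed between PV-like and L5/6 NP-like nuclei by 1.52 ± 0.24 on the log2 scale (edgeR quasi-likelihood test of the population by genotype term, adjusted p = 0.00161), with both CrT-KO libraries above both control libraries in PV-like nuclei and below them in L5/6 NP-like nuclei. Such a separation was seen for 33.9% of the genes tested in PV-like and 33.5% in L5/6 NP-like nuclei, and without nuclei of at least 10 Cacna2d3 UMIs the L5/6 NP-like levels overlapped (63.6 and 47.4 against 68.0 and 51.6 CPM). This pair of populations was chosen after the effects were seen, which the adjusted p does not take into account, and Cacna2d3 was low in both. The test was run on the main set of nuclei only, with none of the alternatives. Of its parts, the PV-like call was lost with doublets kept, and the L5/6 NP-like effect was smaller without control replicate 2. The same test of SST-like against LAMP5-like nuclei, also chosen afterwards, gave 0.83 ± 0.21 for Cacna2d1 (adjusted p = 0.274) and called no member. Groups of 2 libraries are too small for a test of single outlying samples.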

How the results depend on the processing

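Between genotypes, 1 member was called over 20 populations, and 0 with DESeq2, 0 with doublets kept, 3 with a replicate block, and 0 to 3 with 1 library left out. Those called besides Cacna2d3 in PV-like nuclei were Cacna2d3 in L5/6 NP-like nuclei (replicate block -0.81, adjusted p = 0.00431), Cacna1i in MSN-like nuclei (replicate block -0.37, adjusted p = 0.0502; without control replicate 2 -0.50) and, without CrT-KO replicate 2, Cacna2d1 in SST-like (0.92) and Cacna2d3 in L2/3 IT-like nuclei (-0.38). Over all genes the count was 322, and 679 with no filter on low counts, 2630 with the replicate block and 648 to 961 with 1 library left out. The cause was not tested. The labels do not say whether libraries with the same replicate number were handled together. Deviations of same-numbered libraries correlated at 0.158 in excitatory and 0.141 in inhibitory neurons, and 2 pairs are too few to decide it. In the comparison of genotype effects between PV-like and SST-like nuclei, 0 members were called, and 2 with no filter on low counts and 0 to 2 with 1 library left out. Between populations, members called went from 1 to 2 with doublets kept in the excitatory against inhibitory, L2/3 IT-like and L6b-like comparisons and with channel genes used in clustering in the L6b-like one, and L5 IT-like ranged from 0 to 1 with 1 library left out. Of the single differences between populations, 253 kept their direction and their side of the threshold and 3 lost the call. Of 1740 estimates of a member's genotype effect under the alternatives, 160 turned direction (120 of them with 1 library left out), 0 of these among the 12 with an unadjusted p under 0.05. Among the values given, these were Cacna1a in excitatory neurons (-0.065 to 0.037 with 1 library left out; 0.016 without CrT-KO replicate 2), Cacna1h there (-0.085 to 0.28), Cacna1g (-0.030 to 0.30) and Cacna1h (-0.43 to 0.15; 0.08 without control replicate 1) in inhibitory neurons and Cacna2d3 in L2/3 IT-like nuclei (0.061 without CrT-KO replicate 1). Low counts limit Cacna1g, Cacna1h and Cacna1i outside the neurons, and 2 animals per genotype limit all genotype comparisons.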
